A study of Sus scrofa with 12 samples.

Results

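The 63 genes described here encode nuclear-encoded subunits of the mitochondrial respiratory chain and ATP synthase, together with 3 assembly factors of complex I and 1 factor associated with ATP synthase. They were chosen by name, as every gene with a probe set whose only symbol in the array's annotation starts with NDUF, UQCR, ATP5, COX4, COX5, COX6, COX7 or COX8, or is SDHA, SDHB, SDHC, SDHD or CYC1. They make up 63 of the 6765 genes that the array names by a single symbol. Complex I is represented by 32 subunits, complex II by 4, complex III by 2 and complex IV by 8, beside the assembly factors NDUFAF1, NDUFAF2 and NDUFAF3. Complex V is represented by 14 genes, which include the associated factor ATP5S. NDUFA4 carries a complex I name but is now assigned to complex IV and is counted there. Where several probe sets stood for a gene, the brightest was taken, and no other measured value entered the choice of genes.

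Complex I takes electrons from NADH and complex II takes them from succinate, and both pass them to ubiquinone. Complex III hands them on to cytochrome c and complex IV to oxygen, and the proton gradient built up on the way drives complex V, the ATP synthase. The smooth muscle of the artery wall has fewer mitochondria than heart muscle, which lies next to the coronary arteries and has an especially dense respiratory chain. The arrays measured messenger RNA, so the values say nothing of how much of each complex was assembled.

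The tissue came from coronary arteries of Yorkshire farm pigs, collected 28 days after angioplasty and stenting and dissected by hand off the stent. The 3 groups carried a zotarolimus-eluting stent (ZES), a sirolimus-eluting stent (SES) or a bare metal stent (BMS), which releases no drug. Each group had 4 segments from 2 pigs, so 12 arrays came from 6 pigs. In each group, segments 1 and 2 came from the same pig and segments 3 and 4 from the other. The odd-numbered ZES and BMS segments and SES 2 and SES 3 were from the right coronary artery (RCA), SES 1 was from the left circumflex artery, and the others were from the left anterior descending artery (LAD). Sirolimus inhibits the mTOR kinase, which among many tasks promotes the production of mitochondrial proteins, and zotarolimus is its analog, in which a tetrazole ring replaces a hydroxyl group. No source used here gives the drug doses, and the series title speaks of overlapping stents.

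Some arrays stood apart before any comparison. The 28S ribosomal RNA signal was 14.10 on ZES 2 and 14.57 on BMS 1, against 6.95 to 10.74 on the other arrays. The GAPDH 3′ minus 5′ difference, a measure that grows with RNA breakdown and short cDNA, was 3.44 to 3.91 with ZES, 2.33 to 3.02 with SES and 3.64 to 4.63 with BMS (log2). The SES range thus lay below the other groups. Smooth muscle markers (11 genes) averaged between 1.34 below and 1.70 above their 12-array mean with ZES, between 2.17 below and 0.55 above it with SES, and between 0.30 and 1.26 above it with BMS. Heart muscle markers (11 of 16 listed genes with a probe set passed the filter) spanned 3.73 log2 units between SES 2 and SES 4. On these arrays 8 and 10 of the 11 were above background, and 1 was listed at 0 on SES 2. Values are log2 signals, so a difference of 1 is a 2-fold difference, and levels of different genes cannot be compared because each probe set has its own brightness.

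The respiratory chain probe sets gave clear signals that varied little between arrays. All 63 passed the filter on low signal, and 59 were above the background level on all 12 arrays. The exceptions were NDUFV3 on 5 arrays, COX8H on 7, NDUFAF1 on 8 and NDUFS6 on 9. Their median signal was 11.49, with means over the 12 arrays from 4.61 for COX8H to 14.99 for ATP5E, the epsilon subunit of the ATP synthase head.

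Within the stent groups the genes had a median SD of 0.38, against 0.83 over the 16799 probe sets tested and 0.48 over the 3270 of them with a mean signal above 10. Brighter probe sets vary less on this platform, so each gene was also set against probe sets of like signal, and 50 of 63 lay below the median SD there. The range over all 12 arrays had a median of 1.43, and it was under 1.5 for 34 genes and over 2 for 11. The narrowest range was that of NDUFS7, a core subunit that carries the last iron-sulfur cluster before ubiquinone, which lay within 0.68 across all arrays. ATP5I, subunit e of the ATP synthase, was a bright exception that was picked out after its values were seen. Its signal was 10.21, 10.35, 9.60 and 12.34 with ZES, 9.08, 12.16, 9.80 and 9.54 with SES, and 11.46, 10.52, 9.86 and 9.87 with BMS. A single array in each group (ZES 4, SES 2 and BMS 1) was well above the other arrays of that group, and the groups overlapped.

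**Figure D1:**
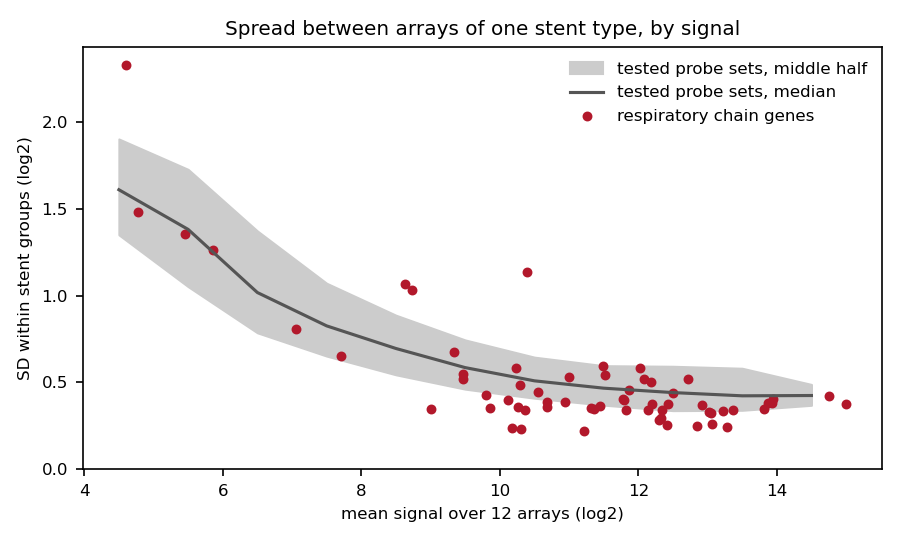
Each red point is 1 of the 63 respiratory chain genes, with its mean signal over 12 arrays (log2) on the horizontal axis and its SD within stent groups (log2) on the vertical axis. The line and the grey band are the median and the middle 50% of all tested probe sets in bins of signal, and 50 of the 63 genes fall below the median of their bin.

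Averaged over all 63 genes, each array was compared with the 12-array mean of each gene. The mean deviation was -0.56, 0.17, 0.02 and 0.11 on ZES 1 to 4, -0.03, 0.20, 0.02 and -0.01 on SES 1 to 4, and 0.13, -0.05, 0.28 and -0.29 on BMS 1 to 4. The 3 groups overlapped, and ZES 1 stood lowest. ZES 1 was the lowest array for 30 of the 63 genes, BMS 4 for 10, and BMS 3 was the highest array for 22. The shares of all probe sets that were lowest or highest on these arrays were not counted. Over all tested probe sets the mean deviation was -0.10 on ZES 1, -0.12 on BMS 4 and -0.04 on BMS 3. The whole span between arrays was 0.84, against 3.73 for heart muscle markers and 3.87 for smooth muscle markers. Of the 11 heart muscle genes, 5 to 10 were above background on an array, against 59 to 63 of the respiratory chain genes. The spans are thus not of genes at like signal. On ZES 1 the smooth muscle markers were also low, at -1.34, and the 28S signal was the lowest of all. On SES 1 to 3 the smooth muscle markers were lower still, at -2.02, -2.17 and -1.72. The 63 genes were at -0.03, 0.20 and 0.02 there. On BMS 4 the smooth muscle markers were at 0.36, with the 63 genes at -0.29. The part of the smooth muscle markers or of the 28S signal in the low respiratory chain values was not tested. In pieces of tissue, fewer cells of a type and less RNA per cell cannot be told apart.

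**Figure D2:**
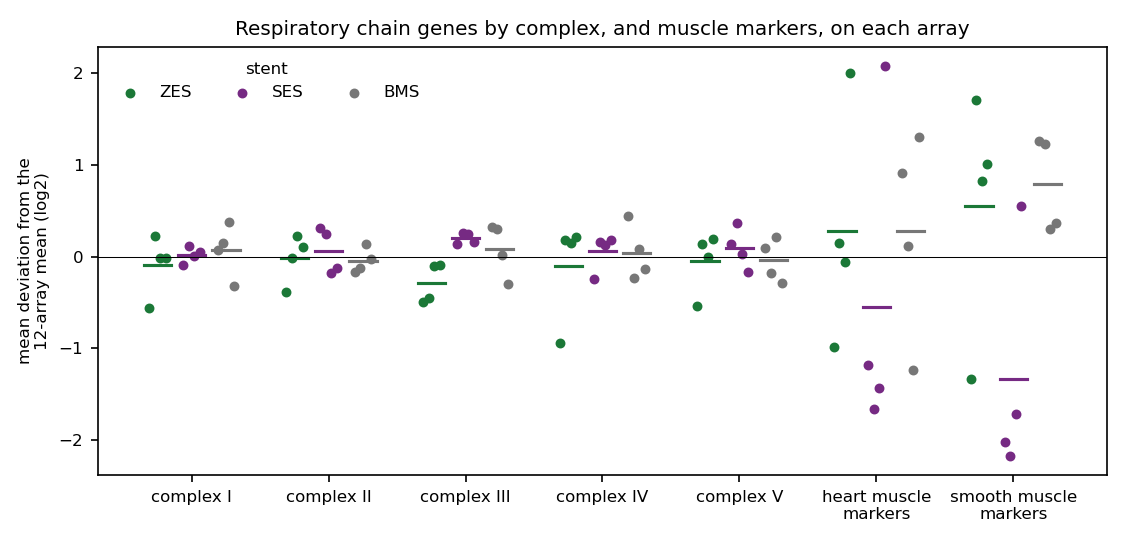
Each point is an array, placed by the mean deviation of a gene list from its 12-array mean (log2), for complexes I to V and for heart and smooth muscle markers, with ZES, SES and BMS from left to right and a bar at the mean of the 4 arrays. All complexes stay between -0.94 and 0.44, while the 2 muscle marker lists run from -2.17 to 2.07. Complex IV includes COX8H, which is near background, and 5 to 10 of the 11 heart muscle genes are above background on an array.

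The stent comparisons asked whether either drug-eluting stent left the artery with another level of respiratory chain transcripts than the bare metal stent. No gene of the 63 passed limma with Benjamini-Hochberg adjustment over all 16799 probe sets in any of them. For SES minus BMS, 0 of 63 were called, where 0.679% of all tested probe sets were. For ZES minus BMS, 0 of 63 were called, where 0% of all probe sets were. For ZES minus SES, 0 of 63 were called, where 0.0714% of all probe sets were. In an F test over the 3 groups 0 of 63 were called, where 0.345% of all were, and 2 of 63 had an unadjusted p under 0.05, against 13.4%.

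Counts at an unadjusted p under 0.05 were low as well. They were 2 of 63 for SES minus BMS, against 14.3% of all tested probe sets, 0 of 63 for ZES minus BMS, against 8.99%, and 2 of 63 for ZES minus SES, against 10%. The median difference of the 63 genes was 0.029 for SES minus BMS, -0.12 for ZES minus BMS and -0.18 for ZES minus SES, where the medians over all probe sets were -0.020, -0.014 and -0.022. Without ZES 2 and BMS 1, the arrays of high 28S signal, the medians of the 63 genes were 0.024, -0.17 and -0.21. Without ZES 1 alone they were 0.029, 0.063 and -0.031, so the sign for ZES minus BMS turned and most of the ZES minus SES median was lost. A positive difference was seen in 33, 23 and 17 of 63 genes in these comparisons, against 48.8%, 49.1% and 48.7% of all probe sets. The comparisons share arrays and are not independent of each other.

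The intervals give the size of difference that the arrays could still hold. The 95% interval lay wholly within 2-fold either way for 39 of 63 genes in SES minus BMS, 39 in ZES minus BMS and 38 in ZES minus SES. The same held for 11.4%, 13.7% and 12.7% of all tested probe sets, and for 39.8%, 49.2% and 45.5% of those with a mean signal above 10. For the other 24, 24 and 25 genes a 2-fold difference was within the interval. With 2 pigs in each group, the error behind intervals and p-values is largely that between segments.

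**Figure D3:**
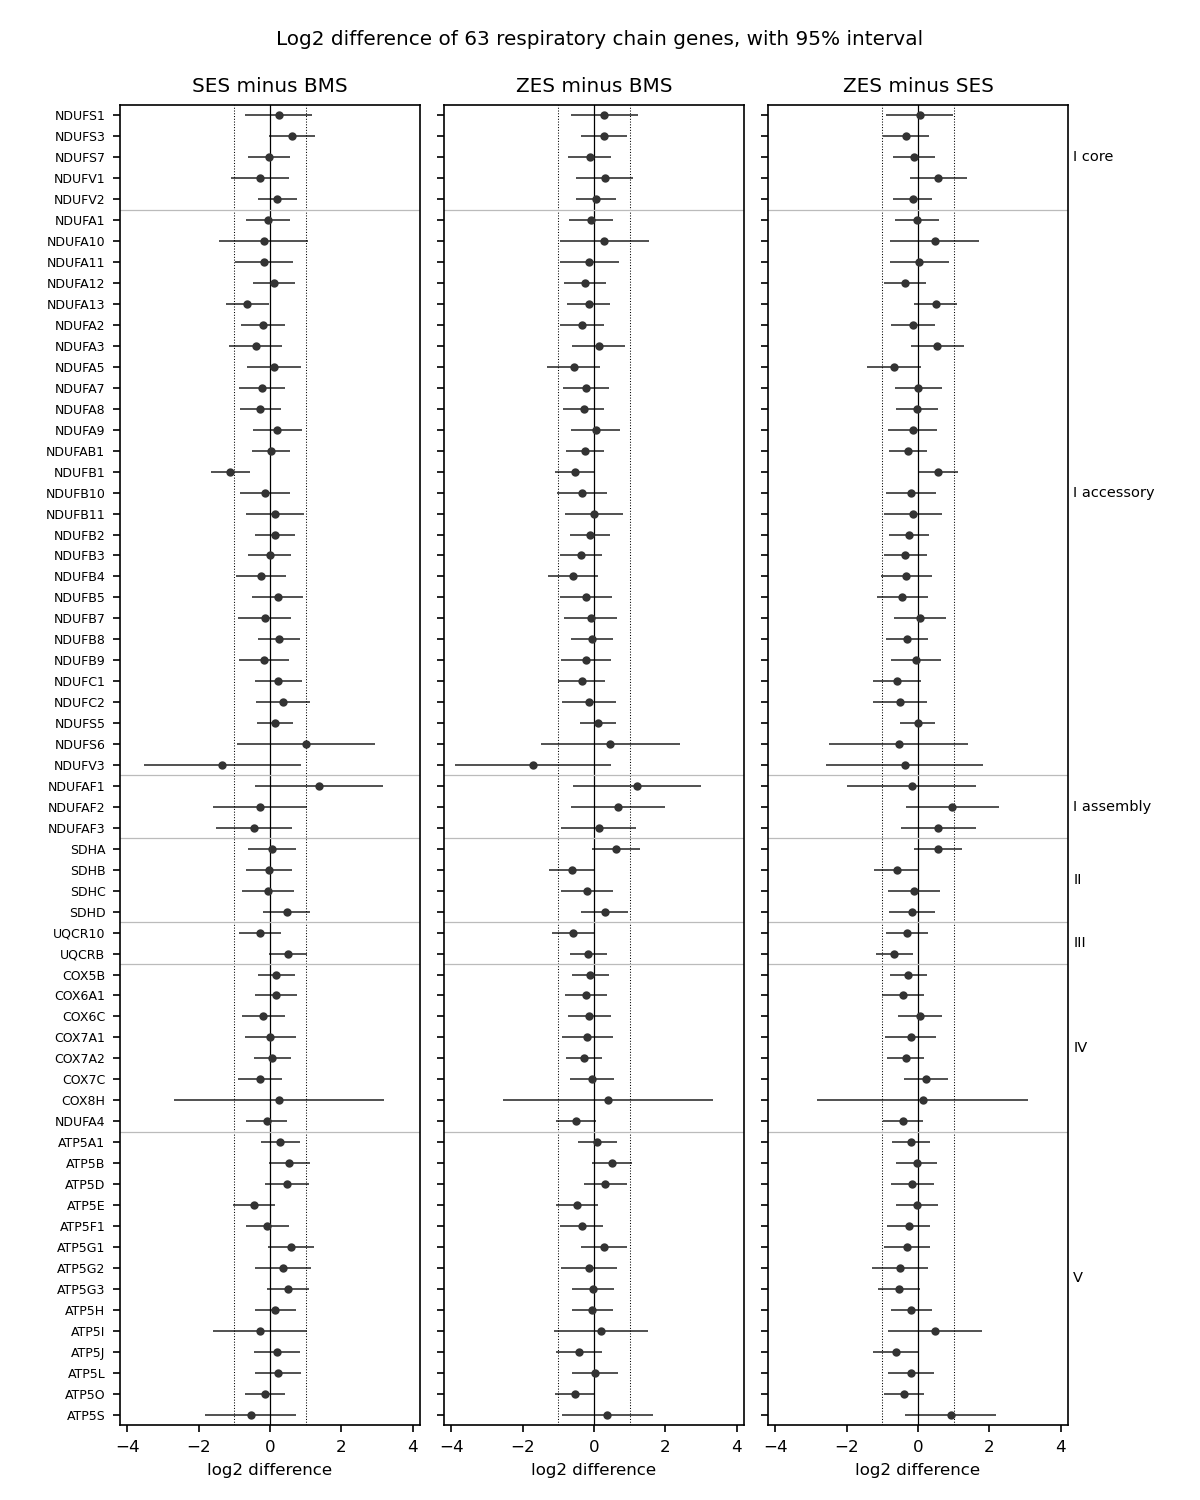
Points are the fitted log2 differences of the 63 genes for SES minus BMS, ZES minus BMS and ZES minus SES, and bars are 95% intervals. Rows are grouped by complex, and dotted lines mark 2-fold in either direction. NDUFB1 in the left panel, at -1.11, is the bright gene farthest from 0, and the widest bars belong to the dim genes COX8H, NDUFV3, NDUFS6 and NDUFAF1.

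Among the 27 accessory subunits of complex I, NDUFB1 had the smallest p-value of the 63 genes. NDUFB1 is a small subunit of the membrane arm, which pumps protons. Its signal was 12.45, 13.27, 13.06 and 13.44 with ZES, 12.29, 12.44, 12.52 and 12.70 with SES, and 13.76, 13.86, 13.60 and 13.16 with BMS. All 4 SES values lay below all 4 BMS values, while the ZES values overlapped both. The difference SES minus BMS was -1.11 ± 0.26 (SE), or 0.464 times the BMS signal, with adjusted p = 0.0618, outside the threshold of 0.05. With the segments of each pig averaged, so that pigs were the units, the adjusted p in limma was 0.177. ZES minus BMS was -0.54 ± 0.26 (adjusted p = 0.571), and ZES minus SES was 0.57 ± 0.26 (adjusted p = 0.488).

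The NDUFB1 result depended on the processing. Under 30 alternatives the SES minus BMS difference stayed between -1.32 and -0.89, and its adjusted p ran from 0.0107 to 0.524. Of these, 8 were past the threshold and 22 were not. Leaving out the factors that are no subunits reused the same fit, so its result was fixed. NDUFB1 has 1 probe set, so averaging probe sets could not change its values. The SES arrays also had the low GAPDH 3′ minus 5′ difference, and SES 1 to 3 had low smooth muscle markers. T cell markers (6 genes) averaged between 0.87 below and 0.61 above their 12-array mean with ZES, between 0.18 and 1.45 above it with SES, and between 0.46 and 1.36 below it with BMS. Endothelial markers (8 genes) lay at 0.14 to 1.40 with ZES, -0.28 to 0.38 with SES and -1.04 to -0.42 with BMS, and red cell markers (2 genes) at -0.77 to 0.17, 0.62 to 1.28 and -1.99 to 0.26. Above background on an array were 4 to 6 T cell genes with ZES, 5 to 6 with SES and 2 to 3 with BMS. For endothelial genes the counts were 8, 6 to 8 and 4 to 7, and for red cell genes 1, 2 and 1 to 2. The part of the GAPDH difference or of any of these marker lists in the NDUFB1 values was not tested.

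NDUFA13, an accessory subunit also known as GRIM19 for its link to cell death, followed in the same comparison. Its signal was 10.72, 11.77, 11.68 and 11.73 with ZES, 10.87, 10.99, 10.84 and 11.21 with SES, and 11.23, 11.65, 11.86 and 11.72 with BMS. The SES values lay below the BMS values with almost no gap, and ZES 1 was low beside the other ZES arrays. SES minus BMS was -0.64 ± 0.29 (adjusted p = 0.314), and ZES minus BMS was -0.14 ± 0.29 (adjusted p = 0.922).

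Over the 27 accessory subunits the median difference was -0.048 for SES minus BMS, -0.21 for ZES minus BMS and -0.15 for ZES minus SES. NDUFB4, of the membrane arm, had 11.42, 12.84, 12.74 and 12.69 with ZES, 12.64, 12.91, 12.76 and 12.66 with SES, and 13.23, 13.00, 13.59 and 12.20 with BMS. The difference between ZES and BMS was -0.58 ± 0.33 (adjusted p = 0.631), and the low values were those of ZES 1 and BMS 4. NDUFA5, of the arm that reaches into the matrix, had 10.60, 10.00, 10.52 and 11.20 with ZES, 11.33, 11.45, 11.68 and 10.57 with SES, and 10.91, 11.13, 10.55 and 11.999 with BMS. ZES minus SES was -0.68 ± 0.35 for NDUFA5 (adjusted p = 0.546), the most negative value of the 63 genes in that comparison, with overlapping groups.

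The most negative differences against BMS were those of NDUFV3, an accessory subunit of the NADH-binding end of the complex, but its signal was near background. It was above background on 1 ZES, 1 SES and 3 BMS arrays. ZES minus BMS was -1.71 ± 1.04 (adjusted p = 0.651) and SES minus BMS was -1.34 ± 1.04 (adjusted p = 0.585), so both intervals held 0 and a difference of more than 3 log2 units.

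The 5 core subunits of complex I had median differences of 0.21 for SES minus BMS, 0.27 for ZES minus BMS and -0.10 for ZES minus SES. None of NDUFS1, NDUFS3, NDUFS7, NDUFV1 and NDUFV2 passed the test. Their mean deviation was 0.05 on ZES 1, where the 27 accessory subunits were at -0.67. The assembly factor NDUFAF1 had the most positive difference against BMS in both comparisons, at 1.19 ± 0.85 for ZES (adjusted p = 0.703) and 1.37 ± 0.85 for SES (adjusted p = 0.482). It was above background on 3 ZES, 4 SES and 1 of the 4 BMS arrays. NDUFAF2 had the most positive difference for ZES minus SES, 0.96 ± 0.62 (adjusted p = 0.653), with 8.43, 10.10, 8.22 and 9.96 with ZES and 8.48, 8.07, 9.48 and 6.84 with SES.

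None of the 4 subunits of complex II passed the test in any stent comparison, and differences between subunits were not tested. SDHA, the flavoprotein that oxidises succinate, had 10.66, 9.67, 10.46 and 10.19 with ZES, 10.03, 10.02, 9.45 and 9.24 with SES, and 9.81, 9.65, 9.62 and 9.44 with BMS. Of the ZES values, 3 lay above every other array and ZES 2 lay among the BMS values. For SDHA, ZES minus BMS was 0.61 ± 0.32 (adjusted p = 0.600) and SES minus BMS was 0.05 ± 0.32 (adjusted p = 0.961). SDHB, the iron-sulfur subunit that takes the electrons on from SDHA, had 9.61, 10.13, 10.59 and 10.78 with ZES, 10.91, 11.22, 10.61 and 10.78 with SES, and 10.76, 11.18, 10.99 and 10.69 with BMS. The 2 lowest ZES values came from the same pig, and ZES minus BMS was -0.63 ± 0.30 (adjusted p = 0.565), with the opposite sign to SDHA.

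The membrane anchors SDHC and SDHD hold complex II in the inner membrane. SDHC differed by -0.19 ± 0.35 for ZES minus BMS (adjusted p = 0.914) and by -0.06 ± 0.35 for SES minus BMS (adjusted p = 0.958). SDHD differed by 0.30 ± 0.31 for ZES minus BMS (adjusted p = 0.816) and by 0.47 ± 0.31 for SES minus BMS (adjusted p = 0.519). On ZES 1, SDHA was the highest of all 12 arrays while SDHB was the lowest, so the low mean of ZES 1 did not extend to every gene.

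**Figure D4:**
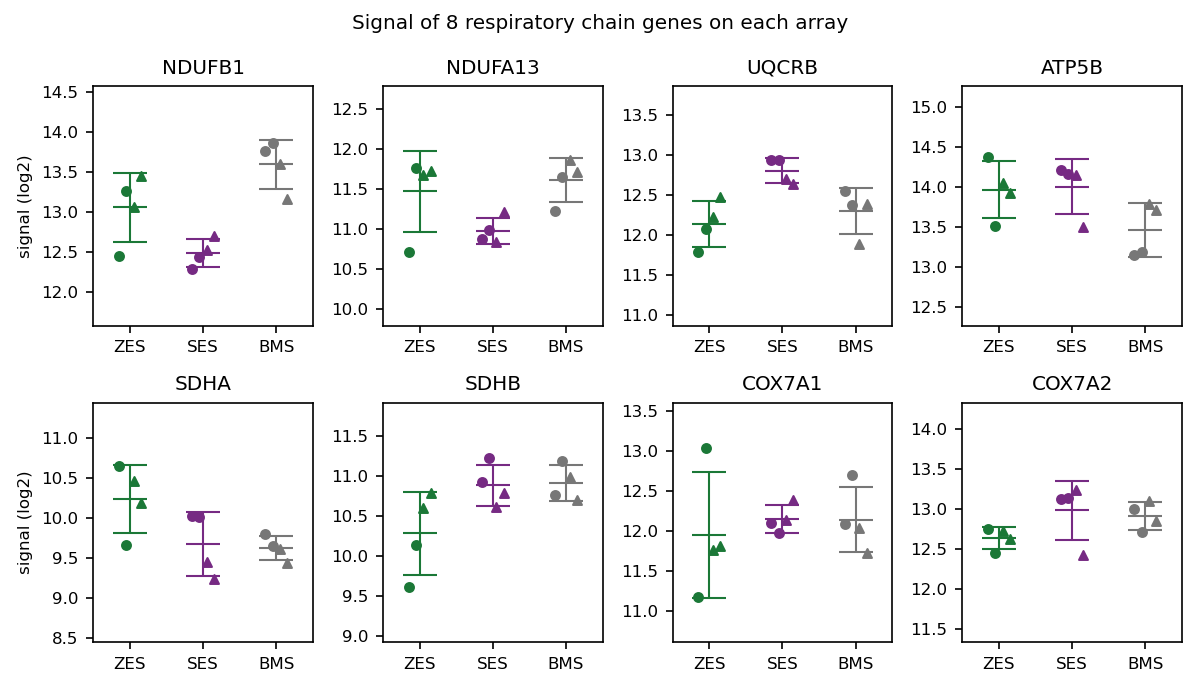
Each point is the signal (log2) of a gene on an array, with ZES, SES and BMS from left to right, circles for segments 1 and 2 and triangles for segments 3 and 4, which came from the other pig. Bars are the mean and SD of 4 arrays, and every panel spans 3 log2 units. NDUFB1 and NDUFA13 have all SES points below all BMS points, and UQCRB has all SES points above both other groups.

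Complex III was represented by UQCRB and UQCR10. UQCRB, a ubiquinone-binding subunit, had 11.78, 12.07, 12.22 and 12.48 with ZES, 12.94, 12.94, 12.70 and 12.64 with SES, and 12.55, 12.37, 11.88 and 12.38 with BMS. All SES values lay above all ZES and all BMS values. SES minus BMS was 0.51 ± 0.25 (adjusted p = 0.363) and ZES minus BMS was -0.16 ± 0.25 (adjusted p = 0.892). UQCR10, a small subunit, had 12.55, 12.36, 12.91 and 12.67 with ZES, 12.67, 12.90, 13.13 and 13.00 with SES, and 13.43, 13.55, 13.48 and 12.35 with BMS. Here 3 BMS arrays were above all others and BMS 4 was the lowest of the 12. The ZES minus BMS difference was -0.58 ± 0.28 (adjusted p = 0.565).

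Complex IV, cytochrome c oxidase, has subunits with separate genes for heart or skeletal muscle and for other tissues. COX7A1, the heart and muscle form of subunit 7A, had 11.17, 13.04, 11.76 and 11.81 with ZES, 12.10, 11.97, 12.14 and 12.39 with SES, and 12.09, 12.70, 12.04 and 11.73 with BMS. ZES 1 and ZES 2, from the same pig, were the lowest and the highest of all arrays, and smooth muscle markers on them were also the group's lowest and highest, at -1.34 and 1.70, with their part in COX7A1 not tested. In COX7A1, ZES minus BMS was -0.19 ± 0.34 (adjusted p = 0.906) and SES minus BMS was 0.01 ± 0.34 (adjusted p = 0.993).

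COX7A2, the widely expressed form of the same subunit, had 12.74, 12.45, 12.73 and 12.63 with ZES, 13.12, 13.14, 13.23 and 12.43 with SES, and 12.99, 12.71, 13.10 and 12.84 with BMS. The groups overlapped, with SES 4 apart from the other SES arrays. ZES minus BMS was -0.28 ± 0.24 (adjusted p = 0.772) and SES minus BMS was 0.07 ± 0.24 (adjusted p = 0.930). COX8H, the heart form of subunit 8, was near background, above it on 3 ZES, 3 SES and 1 BMS arrays, and ranged over 6.17 log2 units with no order by stent. Its difference was 0.39 ± 1.39 for ZES minus BMS (adjusted p = 0.957) and 0.26 ± 1.39 for SES minus BMS (adjusted p = 0.956).

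Of the other complex IV genes, NDUFA4 had 12.42, 13.38, 13.09 and 13.33 with ZES and 13.92, 13.48, 13.58 and 13.28 with BMS, a difference of -0.51 ± 0.27 (adjusted p = 0.600). COX6A1, the form of subunit 6A found outside muscle, averaged 13.72 ± 0.37 with ZES, 14.13 ± 0.16 with SES and 13.95 ± 0.52 with BMS (SD, n = 4 each). COX5B and COX7C, each encoded by a single gene, differed by 0.18 ± 0.24 and -0.28 ± 0.29 for SES minus BMS (adjusted p = 0.781 and 0.705). The median difference over the 8 genes was -0.16 for ZES minus BMS, 0.039 for SES minus BMS and -0.24 for ZES minus SES.

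In complex V the catalytic beta subunit ATP5B had 14.38, 13.52, 14.06 and 13.93 with ZES, 14.21, 14.17, 14.15 and 13.50 with SES, and 13.15, 13.19, 13.79 and 13.72 with BMS. BMS 1 and BMS 2, from the same pig, were the lowest, and a single array of each drug stent (ZES 2 and SES 4) lay below BMS 3 and BMS 4. ZES minus BMS was 0.51 ± 0.27 (adjusted p = 0.606) and SES minus BMS was 0.54 ± 0.27 (adjusted p = 0.368). ATP5E had the opposite sign, with 14.18, 15.25, 14.76 and 15.09 with ZES, 14.91, 14.82, 14.85 and 14.85 with SES, and 15.39, 15.01, 15.89 and 14.91 with BMS. It was picked out after its values were seen, because its SES values lay just below all BMS values, with SES 1 and BMS 4 both at 14.91. SES minus BMS was -0.44 ± 0.28 (adjusted p = 0.481).

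The ring of c subunits, which turns as protons pass, is encoded by ATP5G1, ATP5G2 and ATP5G3, which give the same mature protein. All 3 had a positive difference for SES minus BMS, between 0.35 and 0.59, and none passed the test. ATP5G1 had 11.29, 11.76, 12.12 and 11.89 with ZES, 12.17, 12.44, 11.999 and 11.70 with SES, and 10.98, 11.36, 12.23 and 11.37 with BMS. Its SES minus BMS difference was 0.59 ± 0.30 (adjusted p = 0.388), and BMS 3 lay within the SES range. The stalk subunits ATP5J (coupling factor 6) and ATP5O (the OSCP subunit) differed by -0.43 ± 0.30 and -0.54 ± 0.26 for ZES minus BMS (adjusted p = 0.703 and 0.572).

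Groups that did not overlap were few. For SES minus BMS, 1 gene (UQCRB) had all SES values above all BMS values, where 4.23% of all probe sets did, and 3 genes (NDUFB1, NDUFA13 and ATP5E) had all below, where 4.51% did. For ZES minus BMS there were 0 in either direction, against 1.58% above and 2.23% below. For ZES minus SES, 2 genes (UQCRB and ATP5A1, the alpha subunit of ATP synthase) had all ZES values below all SES values, against 3.06%, and 0 had all above, against 2.94%. The counts are near the shares of all probe sets.

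Sirolimus and zotarolimus, which differ by the hydroxyl group and the tetrazole ring named above, were compared at the same time after implantation, but without known doses. With the brightest probe set of each gene, the smallest p-value among the 63 genes was that of UQCRB. It differed by -0.66 ± 0.25 for ZES minus SES (95% interval -1.19 to -0.14, unadjusted p = 0.0158 in limma, adjusted p = 0.359). A dimmer probe set of ATP5L had a smaller one (unadjusted p = 0.00623 in limma, adjusted p = 0.262). Among the brightest probe sets, NDUFB1 followed at 0.57 (95% interval 0.01 to 1.13, adjusted p = 0.488). ATP5J, at -0.61 (interval -1.25 to 0.03, adjusted p = 0.521), had 9.80, 9.94, 10.23 and 10.10 with ZES and 11.32, 10.73, 10.33 and 10.15 with SES. The ring genes ATP5G1, ATP5G2 and ATP5G3 were all on the negative side, between -0.52 and -0.31. ATP5A1, picked out after its values were seen, had ZES values of 12.37, 12.17, 12.24 and 12.26 and SES values of 12.50, 12.46, 12.45 and 12.42, which did not overlap, and a difference of -0.20 ± 0.26 (adjusted p = 0.853). For SDHA the difference was 0.56 (interval -0.11 to 1.23) and for SDHB it was -0.60 (interval -1.24 to 0.04). ATP5B differed by -0.04, with an interval from -0.60 to 0.53.

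The left anterior descending and right coronary arteries were compared within the 5 pigs that had a segment of each. In limma with the pig as a block, 0 of 63 genes were called, where 0% of all tested probe sets were, and 0 of 63 had an unadjusted p under 0.05, against 6.86% of all. The median difference LAD minus RCA was 0.017, against 0.051 over all probe sets, with a positive difference in 34 of 63 genes, against 53.4% of all. The interval lay within 2-fold for 47 of 63 genes, against 16.8% of all tested probe sets and 59.2% of those with a mean signal above 10. Pigs differed widely. The median over the 63 genes was 0.82 in the pig of ZES 1 and 2 and 0.04 in the pig of ZES 3 and 4. It was -0.10 in the pig of SES 3 and 4, -0.10 in the pig of BMS 1 and 2, and -0.59 in the pig of BMS 3 and 4. In that last pig 54 of 63 genes had the lower LAD value. Over all tested probe sets the mean deviation was -0.12 on its LAD array and -0.04 on its RCA array, and the share with the lower LAD value was not counted. Without the pig of ZES 1 and 2 the median of the fitted differences was -0.20.

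In all 5 pigs 5 genes had the lower value in the LAD (ATP5G3, COX7A2, NDUFA9, NDUFS3 and SDHA, of which NDUFS3 was picked out after its values were seen), where 3.77% of all probe sets did. The count with the higher LAD value in all pigs was 0, where 4.71% did. SDHA had 9.67, 10.19, 9.24, 9.65 and 9.44 in the LAD of the pigs of ZES 1, ZES 3, SES 3, BMS 1 and BMS 3, against 10.66, 10.46, 9.45, 9.81 and 9.62 in the RCA. The difference was -0.36 ± 0.31 (adjusted p = 0.815), and the first of these pigs contributed most of it. NDUFA9, an accessory subunit near the ubiquinone site, differed by -0.51 ± 0.31 (adjusted p = 0.761), and COX7A2 by -0.35 ± 0.24 (adjusted p = 0.776).

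The muscle form COX7A1 had the opposite sign, with 13.04, 11.81, 12.39, 12.70 and 11.73 in the LAD of the same pigs, against 11.17, 11.76, 12.14, 12.09 and 12.04 in the RCA. The LAD value was above the RCA value in 4 of 5 pigs, and the difference was 0.49 ± 0.32 (adjusted p = 0.774). COX8H also had the higher LAD value in 4 of 5 pigs, at 1.08 ± 1.14 (adjusted p = 0.853). Heart muscle markers had the higher LAD mean in 4 of 5 pigs, by 1.14 to 3.50, and the lower one in the pig of BMS 1 and 2, by -0.79. In that pig COX7A1 differed by 0.61 and COX8H by -4.29. COX7A1 had its lower LAD value in the pig of BMS 3 and 4, by -0.31, where the heart muscle markers differed by 2.54. Smooth muscle markers differed by 3.04, 0.19, 2.27, -0.04 and 0.06 in the 5 pigs, in the order above. Of the 11 heart muscle genes, 5 to 10 were above background on an array. The part of either marker list in the COX7A1 and COX8H values was not tested.

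**Figure D5:**
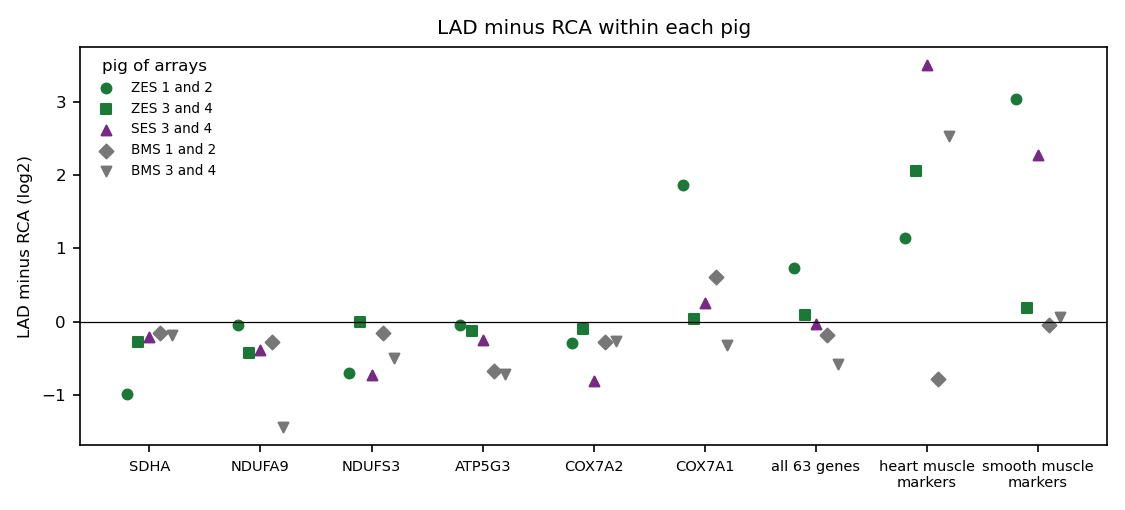
Each symbol is the LAD minus RCA difference (log2) within a pig, for 6 respiratory chain genes, for the mean over all 63 genes and for the means of 2 muscle marker lists. SDHA, NDUFA9, NDUFS3, ATP5G3 and COX7A2 are at or below 0 in all 5 pigs. COX7A1 and the heart muscle markers are each above 0 in 4 of 5, but the pig below 0 is not the same.

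Other genes of mitochondria were read in the same fits. None passed the test in any stent or artery comparison among 13 further assembly factors, 19 enzymes of pyruvate use and the citric acid cycle, 18 of fatty acid oxidation, 12 electron carriers and antioxidants, 11 inner membrane carriers and porins, 9 regulators of mitochondrial biogenesis, 58 mitochondrial ribosomal proteins and 22 import factors and chaperones. For SES minus BMS their list medians ran from -0.18 for fatty acid oxidation to 0.34 for electron carriers and antioxidants. For ZES minus SES they ran from -0.52 for the regulators to 0.10 for fatty acid oxidation. At an unadjusted p under 0.05 for SES minus BMS, the positive differences were 6 of 58 ribosomal proteins, 3 of 12 electron carriers and antioxidants, 2 of 19 citric acid cycle genes, 2 of 11 carriers, 1 of 9 regulators, 1 of 22 import factors, and 0 in the other 2 lists, against 7.33% of all probe sets. The ribosomal list as a whole had a median of -0.065 there, with 37 of 58 differences negative. On ZES 1 and BMS 4, the ribosomal proteins averaged -0.29 and -0.25, next to -0.56 and -0.29 for the 63 respiratory chain genes.

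Of 17 further probe sets for the same genes, 13 for 10 genes passed the filter, and 0 were called in any comparison. The sign was that of the brighter probe set for 8 of 13 in SES minus BMS, 6 in ZES minus BMS, 7 in ZES minus SES and 4 in LAD minus RCA. An unadjusted p under 0.05 in limma was seen for 0, 1, 2 and 1 of the 13 in these comparisons. The shares of all tested probe sets were 14.3%, 8.99%, 10% and 6.86%. NDUFB3, of the membrane arm, gave -0.36 with both probe sets for ZES minus BMS. ATP5L, of complex V, gave -1.28 and -0.42 with its dimmer probe sets in ZES minus BMS, against 0.03 with the brightest one. In ZES minus SES they gave -1.59 and -1.05 (adjusted p = 0.262 and 0.469), against -0.20. SDHB gave -0.15 with its dimmer probe set against -0.63 with the brighter one in ZES minus BMS, and 0.23 against -0.60 in ZES minus SES. The signs given above for SDHB thus held for 1 of its 2 tested probe sets in ZES minus SES.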

How the data were processed

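Per the submitters' processing notes, the authors used Affymetrix Expression Console 5.0 with MAS5, and the deposited values are log2 signals, as their scale shows. No source used here gives the scaling target or the handling of low signals, and 41 to 1153 probe sets per array are listed at 0. From 24123 probe sets, 124 controls and then the 30% with the lowest mean were left out, so 16799 were tested, with no pseudocount (0). The stent comparisons used limma 3.58.1 (R 4.3.3, statmod 1.5.0) with all 12 arrays in the model, the pig as a random block (consensus correlation -0.0322) and eBayes with a variance trend. For LAD against RCA the pig was a fixed block. Tests were two-sided and adjusted by Benjamini-Hochberg over all tested probe sets, with a threshold of 0.05, and the procedure was tested on simulated data. Background was set on each array at the 95th percentile of 59 controls for sequences not spiked in. Precision is limited by the small number of pigs and arrays. Alternatives covered the block, means per pig, scaling, a pseudocount of 32, the filter, the probe set rule, the variance trend, array weights, only the groups compared, the factors that are no subunits, and each array and pig left out.

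The 63 genes and the other lists were chosen with earlier results of these data known. Named genes are those past the threshold, the 2 genes of each complex with the smallest p in each comparison, the largest positive and negative differences, muscle isoforms and all of complex II. All 63 gene IDs were found in RefSeq's gene table. A probe set that carries 2 gene IDs under the symbol ATP5SL was not used. Promoter and protein sequences were not analysed here.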

Additional observations from a re-analysis of the deposited data

Results flagged for a closer look

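Within groups of 4 arrays, 99 sets of values were examined for a single array apart from the other 3, and 7 were found; chance marks about 1 in 20 such groups. With ZES, ZES 1 was low for NDUFA13, at 10.72 against 11.68 for the next array, and for NDUFB4, at 11.42 against 12.69. The mean deviation of the 8 complex IV genes was -0.94 on ZES 1, where the next ZES array was at 0.15. Their median deviation on ZES 1 was -0.67, and COX8H, near background, was at 1.25 there against a 12-array mean of 4.61. With SES, SES 4 was low for ATP5B, at 13.50 against 14.15 for the next array, and for COX7A2, at 12.43 against 13.12. The mean deviation of complex IV was -0.24 on SES 1, where the next SES array was at 0.12. The median deviation of these 8 genes on SES 1 was 0.17, of the opposite sign. COX8H was below background on SES 1 and far below its 12-array mean, so the low mean there did not extend to the complex IV genes as a set. With BMS, BMS 4 was low for UQCR10, at 12.35 against 13.43 for the next array. ZES 1 and BMS 4 are also the arrays that were lowest for 30 and for 10 of the 63 genes.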

How the results depend on the processing

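The count of respiratory chain genes called stayed at 0 for ZES minus BMS, ZES minus SES and LAD minus RCA under every alternative run. For SES minus BMS the count was 1, NDUFB1, with array weights (-1.18, adjusted p = 0.0107) and with only the 2 groups compared (-1.11, adjusted p = 0.0394). With means per pig the count was 0, with adjusted p = 0.177 for NDUFB1. With each array or pig left out in turn it ranged from 0 to 1. It was 1 without BMS 4, SES 4, ZES 1 or ZES 4 (adjusted p = 0.0395, 0.0389, 0.0333 and 0.0456), without the pig of BMS 3 and 4 (0.0340) and without the pig of ZES 1 and 2 (0.0225). Without those arrays, 175, 415, 146 and 184 of all probe sets were called, and 405 without the pig of BMS 3 and 4. Leaving out ZES arrays changes the shared estimate of spread, not the SES or BMS values. Without the pig block the counts of the 63 genes stayed at 0, while all calls for SES minus BMS went to 89 without it, against 114 with it. No paired analysis was possible because pigs, and so segment numbers, are not shared between stent types. Median differences of the 63 genes ran from -0.043 to 0.22 for SES minus BMS, -0.24 to 0.063 for ZES minus BMS, positive without ZES 1 (0.063), without its pig (0.050) and with median centring (0.033), and -0.33 to -0.031 for ZES minus SES. Median centring moved the median of all probe sets for SES minus BMS to 0.17, against -0.020, and that of the 63 genes to 0.22. For LAD minus RCA the median of the 63 genes was -0.22 without the pigs of ZES 1 and 2 and of BMS 1 and 2, a choice made after seeing the data; the cause was not tested. Without BMS 1 and ZES 2, also chosen after seeing the data, 0 of the 63 were called in each stent comparison. All calls for SES minus BMS ran from 0 without SES 3 to 673 with array weights, against 114; they were 1 without the pig of SES 1 and 2, 11 without SES 1, 13 without SES 2 and 19 without the variance trend.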
